A study of Mus musculus with 16 samples.

Results

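The 10 genes described here belong to the circadian clock: Per1, Per2, Per3, Dbp, Tef, Nr1d1, Nr1d2, Ciart, Arntl and Bhlhe41. They were chosen by name from a table of 49315 mouse genes, and all 10 were among the 17469 genes that passed the filter on low counts. RNA was sequenced from the hippocampus of 16 mice, 4 in each of 4 groups, which crossed a Kcna1 knockout (KO) or wild type (WT) genotype with a standard or a ketogenic diet. The protein of Kcna1 is a subunit of a potassium channel that voltage opens, and mice without it have spontaneous seizures. Ketogenic food supplies most of its energy as fat and little as carbohydrate. The question asked here of the clock genes was whether genotype, diet or their combination shifted their levels. Strain, age, sex, the length of the diet and the time of day at which tissue was taken are not given in the sources used here. Each mouse gives 1 moment, so a difference in the level of a clock gene and a difference in the phase of its daily rhythm cannot be told apart in these data.

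The mammalian clock is a transcriptional feedback loop. ARNTL (also called BMAL1) pairs with CLOCK and activates genes through E-boxes, among them the Per and Cry genes, whose proteins then repress that pair. A second loop runs through the nuclear receptors REV-ERBα and REV-ERBβ, encoded by Nr1d1 and Nr1d2, which repress Arntl, while the leucine zipper factors encoded by Dbp, Tef and Hlf carry the rhythm to output genes through D-boxes. Outside the suprachiasmatic nucleus, tissues such as the hippocampus hold clocks of their own, and Per1 is also induced by neuronal activity and by glucocorticoids.

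To show sequence beside these genes that holds letters of clock motifs, the 250 bases before the transcription start were taken for Per1, Ciart and Per3 from RefSeq (GRCm38.p6), each written 5′ to 3′ on the strand of its gene. Per1 was chosen because it gave the smallest p of the 10, and Ciart and Per3 for their motif matches among the 9 members whose promoters were searched (all but Per2). Of these 9, Ciart held the most CACGTG E-boxes and only Per3 held a D-box. A second promoter of Per1 (chr11:69099902-69100201), not shown, held none of the 6 motifs searched below. Capitals mark the E-box CACGTG in Per1 and Ciart and the D-box TTATGTAA in Per3.
Per1 (chr11:69098699-69098948, plus strand): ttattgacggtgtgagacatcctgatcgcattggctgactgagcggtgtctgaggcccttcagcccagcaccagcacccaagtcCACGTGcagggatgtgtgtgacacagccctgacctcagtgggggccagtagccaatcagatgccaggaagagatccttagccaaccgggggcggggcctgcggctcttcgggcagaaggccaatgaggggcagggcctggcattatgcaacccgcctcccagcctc
Ciart (chr3:95882229-95882478, minus strand): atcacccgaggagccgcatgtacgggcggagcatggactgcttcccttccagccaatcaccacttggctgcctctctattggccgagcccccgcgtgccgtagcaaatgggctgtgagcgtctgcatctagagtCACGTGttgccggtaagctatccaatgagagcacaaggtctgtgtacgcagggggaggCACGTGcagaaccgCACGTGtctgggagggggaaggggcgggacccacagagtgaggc
Per3 (chr4:151044666-151044915, minus strand): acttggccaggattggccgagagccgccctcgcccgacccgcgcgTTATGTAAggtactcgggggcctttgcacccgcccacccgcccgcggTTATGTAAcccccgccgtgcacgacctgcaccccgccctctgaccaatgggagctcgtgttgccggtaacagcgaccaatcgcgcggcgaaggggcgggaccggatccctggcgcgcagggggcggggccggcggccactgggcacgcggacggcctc

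RefSeq promoters, from 250 bases before to 50 bases after a start, were matched for these 9 genes. They were searched on both strands for 6 motifs, which were CACGTG, its variant CACGTT, the D-boxes TTATGTAA and TTACGTAA, the cAMP response element TGACGTCA and AGGTCA, the letters that the REV-ERB and ROR receptors bind. CACGTG stood in promoters of 4 genes (Per1, Tef, Ciart and Bhlhe41) and in 7.15% of all 32851 promoters of the table. CACGTT was found for Nr1d1, against 4.68% of all promoters. TTATGTAA stood in the Per3 promoter, in 2 copies, and in 0.938% of all promoters. AGGTCA was found for Per1, Nr1d2 and Arntl, against 16.3% of all promoters. TTACGTAA and TGACGTCA were in none of the member windows searched, and in 0.119% and 1.79% of all promoters. These 9 genes had 12 promoters, with 2 each for Per1, Tef and Arntl. A gene was counted where any of its promoters matched, while the shares are of single promoters. The matches of Per1 and of Arntl were in 1 of their 2 promoters. A match is a description of the letters and shows no binding.

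Total counts per library ranged from 13440230 to 22309504. Summed over 6 markers of hippocampal neurons (Prox1, Wfs1, Fibcd1, C1ql2, Neurod6 and Zbtb20), the level was 1115 to 1384 CPM (counts scaled to library size) in all libraries. Of 4 markers of the hypothalamus and suprachiasmatic nucleus, only Vip, which hippocampal interneurons also express, passed the filter on low counts. Kcna1 was 107 to 130 CPM in wild type libraries and 43.4 to 47.2 CPM in 7 of the 8 knockout libraries. It was 82.0 CPM in the library labelled knockout KC888LL (standard diet), which lay between the genotypes. A second library, KC913RR (knockout, ketogenic diet), stood apart for the clock genes, as described below. Where a log2 fold change of a clock gene printed below moved by over 1.5 times, or changed sign or call, without one of them, it is also given without that library. Libraries carry the animals' tags and, within a group, values are given in the order of these tags. With standard food they are KC890RL, KC894RLL, KC897RR and KC900RLL for wild type and KC872RL, KC873RR, KC888LL and KC893RL for knockout. With ketogenic food they are KC842L, KC843RL, KC844RR and KC846L for wild type and KC913RR, KC916RRL, KC934R and KC935LL for knockout. The Y-linked gene Ddx3y was expressed in KC890RL, KC872RL, KC873RR and KC846L, and sex was not balanced over the groups.

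Per kilobase of exon, the median level over the 16 libraries was highest for Tef, at 49.2 CPM per kb. Nr1d1 followed at 29.7, Dbp at 19.1, Nr1d2 at 18.8, Per1 at 15.2, Per3 at 9.51, Per2 at 8.21, Bhlhe41 at 5.45, Ciart at 5.19 and Arntl at 3.75 CPM per kb. Over libraries, the ranges of neighbours in this order overlapped in every case but Nr1d1 and Dbp. The exons of Nr1d1 share 263 bases with Thra on the other strand, those of Dbp share 539 bases with Sphk2 and those of Bhlhe41 share 1280 bases with Gm43909. The use of strand in counting is not given in the sources used here, so reads from these stretches cannot be assigned.

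No clock gene passed an adjusted p under 0.05 in any of the 7 comparisons made with edgeR's quasi-likelihood test. Across all tested genes the same rule called 0.00572% for genotype on the standard diet and 0.0172% on the ketogenic diet. It called 1.16% for ketogenic against standard diet in the knockout and 0.0114% in the wild type. For the interaction of genotype and diet it called 0%, for diet averaged over genotypes 0.899% and for genotype averaged over diets 0.0973%. At an unadjusted p under 0.05 the clock genes numbered 2 for genotype on the standard diet (14.3% of all genes), 1 for genotype on the ketogenic diet (9.22%), 1 for diet in the knockout (16.9%) and 0 for diet in the wild type (5.46%). They numbered 1 for the interaction (7.48%), 0 for averaged diet (14.4%) and 3 for averaged genotype (15.8%). DESeq2 called 1 clock gene, Per1, for genotype on the ketogenic diet, beside 0.305% of all genes, and again for averaged genotype, beside 2.38%. DESeq2 called 0 clock genes for genotype on the standard diet (1.03% of all genes), diet in the knockout (4.2%), diet in the wild type (0.0687%), the interaction (0.0401%) and averaged diet (2.47%). Limma-voom called 0 clock genes in all 7, beside 0.0114% and 0.0286% of all genes for genotype on the standard and ketogenic diets, 0.836% and 0% for diet in the knockout and the wild type, 0% for the interaction, 0.841% for averaged diet and 0.218% for averaged genotype. Groups that did not overlap were found for 1 clock gene, Per1, for genotype on the ketogenic diet. They were found for 0 clock genes for genotype on the standard diet (5.86% of all genes), diet in the knockout (6.39%) and diet in the wild type (4.88%). The comparisons within a diet or genotype share groups with each other and are not independent.

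**Figure D1:**
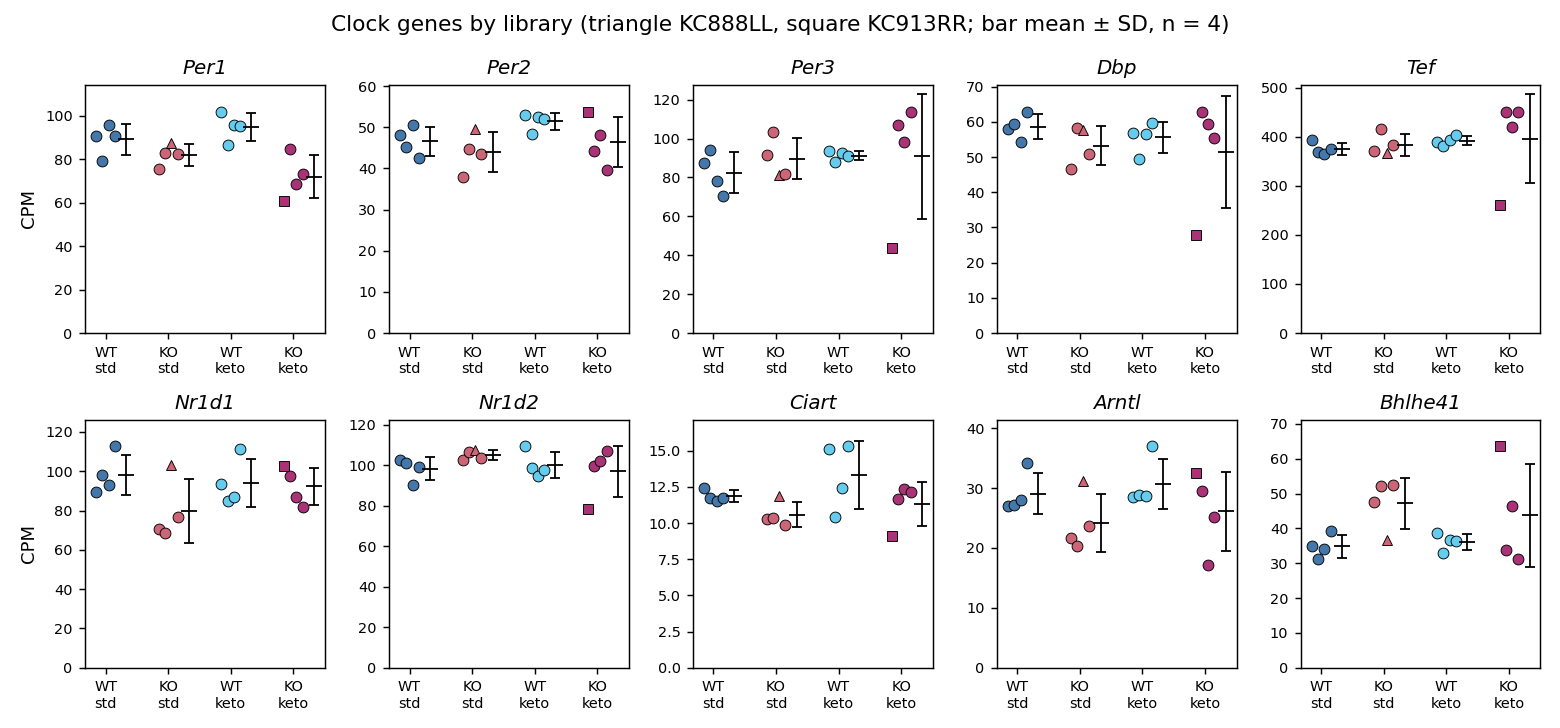
Level of each of the 10 clock genes in every library, in CPM on axes that start at 0, by group of 4 libraries with the mean ± SD (square KC913RR, triangle KC888LL). For Per1 on the ketogenic diet all knockout libraries (60.9 to 84.6 CPM) lie under the wild type libraries (86.5 to 102 CPM), and KC913RR is the lowest point for Per3, Dbp and Tef.

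Per1, a light- and activity-responsive repressor of the loop, was the member that stood lowest in the knockout on the ketogenic diet. Its levels were 102, 86.5, 95.5 and 95.2 CPM in wild type and 60.9, 84.6, 68.6 and 73.3 CPM in knockout on that diet. The 2 groups did not overlap, with all 4 knockout libraries below all 4 wild type libraries. Among all tested genes, 3.98% had groups that did not overlap in this comparison. In the same comparison all 5 oligodendrocyte markers (Mbp, Mog, Mag, Mobp and Cnp) were lower in the knockout, 4 at an unadjusted p under 0.05 and 0 called, with a median log2 fold change of -0.47 and sums of 2390 to 2911 CPM in wild type and 1333 to 2543 CPM in knockout. All 4 blood markers were lower, 3 at an unadjusted p under 0.05 and 0 called, with a median of -1.60 and sums of 41.2 to 100.6 and 16.9 to 31.3 CPM. All 5 reactive astrocyte markers were higher, 3 at an unadjusted p under 0.05 and 0 called, with a median of 1.38. The part of these markers in the Per1 values was not tested. The knockout level was 0.758 times the wild type level (95% interval 0.670 to 0.856), a log2 fold change of -0.40 ± 0.084 (SE) with an adjusted p of 0.170 by edgeR. Over the alternatives run, the log2 fold change ranged from -0.49 to -0.33. The adjusted p ranged from 0.00935 (DESeq2) to 0.699 (a library left out). With edgeR it passed without KC916RRL, the knockout library of highest Per1 (log2 fold change -0.49, adjusted p = 0.0266, beside 0.0733% of all genes called). It also passed without the filter on low counts (-0.41, adjusted p = 0.0225, beside 0.0332%).

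The Per1 groups overlapped on the standard diet. Wild type libraries measured 90.6, 79.1, 95.8 and 90.4 CPM and knockout libraries 75.3, 82.9, 87.2 and 82.3 CPM. The log2 fold change was -0.12 ± 0.084 (adjusted p = 0.544, edgeR). Between diets, Per1 in the knockout was lower on the ketogenic diet by a log2 fold change of -0.19 ± 0.084 (adjusted p = 0.261, and -0.12 without KC913RR), and in the wild type the value was 0.091 ± 0.084 (adjusted p = 0.993). The test of the difference between these effects, the interaction, gave -0.28 ± 0.12 with an unadjusted p of 0.0293 and an adjusted p of 0.654. The genotype effect on Per1 was therefore not shown to differ between diets.

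Averaged over diets, Per1 had the lowest adjusted p of the 10 genes. The knockout level was 0.835 times the wild type level (95% interval 0.766 to 0.910), a log2 fold change of -0.26 ± 0.059 with an adjusted p of 0.0888 by edgeR. Of 8 knockout libraries, 4 lay below the whole range of the 8 wild type libraries and 0 above it. The adjusted p was 0.0166 without KC888LL (beside 4.96% of all genes called), 0.0219 without KC916RRL (beside 0.722% of all genes called), 0.0242 without the filter (beside 0.214%) and 0.0101 with DESeq2, and up to 0.216 when another library was left out.

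Per2 and Per3 are paralogs of Per1. Per2, a core repressor that pairs with the CRY proteins, measured 48.1, 45.1, 50.6 and 42.5 CPM in wild type and 38.0, 44.8, 49.7 and 43.6 CPM in knockout on the standard diet. Per2 under ketogenic feeding measured 53.0, 48.3, 52.5 and 52.0 CPM in wild type and 53.9, 44.3, 48.1 and 39.6 CPM in knockout. All groups of Per2 overlapped. Knockout against wild type gave a log2 fold change below 0 on both diets, as for Per1, at -0.083 ± 0.090 with standard food (adjusted p = 0.725, and -0.15 without KC888LL) and -0.15 ± 0.089 with ketogenic food (adjusted p = 0.630, and -0.22 without KC913RR). Averaged over diets it was -0.12 ± 0.063 (unadjusted p = 0.0852, adjusted p = 0.387), and -0.18 without KC888LL and KC913RR, a choice made after seeing the data (adjusted p = 0.0504). Whether Per2 differed from Per1 was not tested. Its change with diet, averaged over genotypes, was 0.11 ± 0.063 on the log2 scale (adjusted p = 0.436), and 0.071 without KC913RR.

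Per3 measured 87.4, 94.3, 78.1 and 70.3 CPM in wild type and 91.7, 104, 81.2 and 81.6 CPM in knockout on the standard diet. Its ketogenic libraries measured 93.4, 87.9, 92.4 and 91.1 CPM in wild type and 43.6, 107, 98.5 and 114 CPM in knockout. In that last group 3 libraries lay above every ketogenic wild type library and KC913RR lay far below them. The genotype difference on the ketogenic diet was -0.0066 ± 0.22 (adjusted p = 0.995), and without KC913RR it was 0.23 (adjusted p = 0.679), a value of the other sign.

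Ciart (also called CHRONO), a repressor of the ARNTL pair, was the least counted of the 10. It measured 12.4, 11.7, 11.5 and 11.8 CPM in wild type and 10.3, 10.3, 11.8 and 9.9 CPM in knockout on the standard diet. Ciart under ketogenic feeding measured 15.1, 10.4, 12.4 and 15.3 CPM in wild type and 9.1, 11.7, 12.3 and 12.2 CPM in knockout. The groups overlapped on both diets. The log2 fold change of knockout against wild type was -0.24 ± 0.12 on the ketogenic diet (adjusted p = 0.572, and -0.14 without KC913RR) and -0.20 ± 0.088 averaged over diets (unadjusted p = 0.0342, adjusted p = 0.274).

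Bhlhe41 (also called DEC2), a basic helix-loop-helix repressor that competes for E-boxes, stood out in the opposite direction to Per1. On the standard diet it measured 35.0, 31.2, 33.9 and 39.1 CPM in wild type and 47.5, 52.0, 36.6 and 52.5 CPM in knockout, so that every knockout library but KC888LL lay above the wild type range. Fed the ketogenic diet, mice gave 38.5, 33.0, 36.7 and 36.4 CPM in wild type and 63.6, 33.8, 46.5 and 31.3 CPM in knockout, with 2 libraries above the wild type range, 1 within it and 1 below it. The log2 fold change was 0.44 ± 0.18 on the standard diet (adjusted p = 0.300), 0.27 ± 0.18 on the ketogenic diet (adjusted p = 0.667) and 0.36 ± 0.13 averaged over diets (adjusted p = 0.204). The ketogenic value rested on KC913RR, and without it was 0.046 (adjusted p = 0.969). Without KC888LL and KC913RR, a choice made after seeing the data, Bhlhe41 rose on the standard diet by 0.54 (adjusted p = 0.00510, beside 9.98% of all genes called) and over both diets by 0.29 (adjusted p = 0.0295, beside 6.85%). The same omission gave a fall with the ketogenic diet in the knockout of -0.44 (adjusted p = 0.0352, beside 5.77% of all genes called), where the value with all libraries was -0.11 ± 0.18 (adjusted p = 0.818). Left out singly, KC888LL gave -0.21 and KC913RR -0.34.

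The 5 libraries of highest Bhlhe41 were also the 5 of highest Gfap, the intermediate filament of reactive astrocytes, a comparison chosen after its values were seen. They were KC872RL, KC873RR, KC893RL, KC913RR and KC934R, all knockout. Bhlhe41 was at least 46.5 CPM in these and at most 39.1 CPM in the other 11 libraries, and Gfap was at least 611 CPM against at most 390 CPM. Summed over 5 reactive astrocyte markers (Gfap, Vim, Serpina3n, Cd44 and Osmr), the range was 365 to 482 CPM for wild type and 429 to 2861 CPM for knockout with standard food. With ketogenic food it was 381 to 415 CPM in wild type and 368 to 2397 CPM in knockout. The part of astrocytes in the Bhlhe41 values was not tested. In bulk tissue, more cells of a type and more RNA per cell cannot be told apart. Bhlhe41 lies on chromosome 6, as does Kcna1, 19.21 Mb away, and the part of sequence that stays linked to the targeted allele was not tested.

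**Figure D2:**
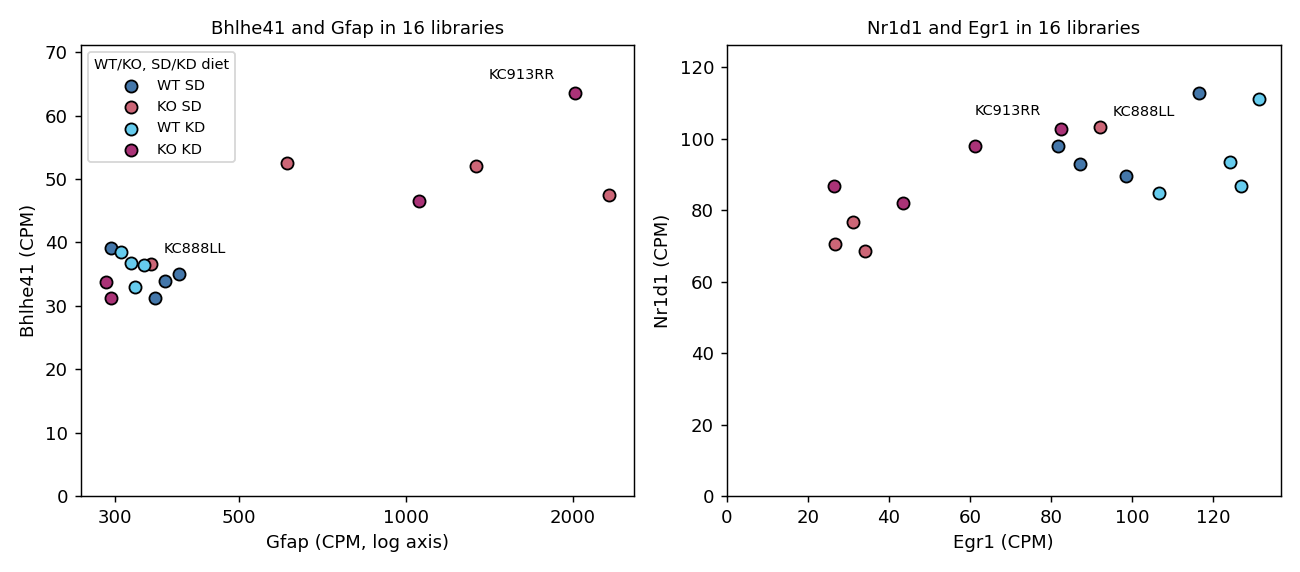
Bhlhe41 against Gfap (left, Gfap on a log axis) and Nr1d1 against Egr1 (right) in the 16 libraries, all in CPM and coloured by group. The 5 libraries with Gfap of at least 611 CPM are the 5 with Bhlhe41 of at least 46.5 CPM, and KC888LL lies among the wild type points in both panels.

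Nr1d1, the heme-binding repressor REV-ERBα, was lower in 3 of 4 knockout libraries on the standard diet. It measured 89.6, 98.0, 92.9 and 113 CPM in wild type and 70.5, 68.5, 103 and 76.7 CPM in knockout. Every knockout library but KC888LL lay below the wild type range. The log2 fold change was -0.30 ± 0.13 (unadjusted p = 0.0289, adjusted p = 0.297). Without KC888LL it was -0.46 with an adjusted p of 0.0157, beside 5.73% of all genes called. In this comparison all 6 microglia markers were higher in the knockout, 4 at an unadjusted p under 0.05 and 0 called, with a median log2 fold change of 0.47 and sums of 174 to 208 CPM in wild type and 182 to 369 CPM in knockout. All 5 reactive astrocyte markers were higher too, 3 at an unadjusted p under 0.05 and 0 called, with a median of 1.63. The part of these markers in the Nr1d1 values was not tested.

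The Nr1d1 groups overlapped on the ketogenic diet, at 93.5, 84.7, 86.8 and 111 CPM in wild type and 103, 97.8, 86.7 and 81.9 CPM in knockout. The log2 fold change was -0.030 ± 0.12 (adjusted p = 0.958), and -0.083 without KC913RR. In the knockout, ketogenic against standard diet gave 0.21 ± 0.13 (adjusted p = 0.423), and without KC888LL 0.36 (adjusted p = 0.0425, beside 6.18% of all genes called). This comparison shares its standard-diet knockout libraries with the genotype comparison on the standard diet. It shares its ketogenic-diet knockout libraries with the genotype comparison on the ketogenic diet. In it all oligodendrocyte, thalamus, blood and microglia markers were lower on the ketogenic diet, as given below beside Rora. The part of these markers in the Nr1d1 values was not tested. The interaction was 0.27 ± 0.18 (adjusted p = 0.755), and 0.42 without KC888LL. Averaged over diets the genotype difference was -0.17 ± 0.088 (adjusted p = 0.379), and without KC888LL -0.24 (adjusted p = 0.0478, beside 4.96%).

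Nr1d2, which encodes REV-ERBβ, held a narrower range. It measured 103, 101, 90.3 and 99.3 CPM in wild type and 102, 107, 107 and 104 CPM in knockout on the standard diet. Ketogenic libraries of this gene measured 109, 98.6, 94.9 and 97.6 CPM in wild type and 78.5, 99.9, 102 and 107 CPM in knockout. The lowest value again belonged to KC913RR, and the genotype difference on that diet was -0.045 ± 0.077 (adjusted p = 0.883) with it and 0.046 without it.

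Arntl, the activator of the loop and a target of the REV-ERB repressors, had the least RNA per kilobase. It measured 26.9, 27.2, 28.0 and 34.2 CPM in wild type and 21.6, 20.3, 31.1 and 23.7 CPM in knockout on the standard diet. Arntl in ketogenic libraries measured 28.4, 28.8, 28.6 and 37.0 CPM in wild type and 32.5, 29.5, 17.2 and 25.1 CPM in knockout. Of the 8 knockout libraries, 5 lay below the whole wild type range, and the other 3, among them KC888LL and KC913RR, lay within it. The log2 fold change was -0.27 ± 0.17 on the standard diet (adjusted p = 0.511), -0.24 ± 0.17 on the ketogenic diet (adjusted p = 0.688) and -0.25 ± 0.12 averaged over diets (adjusted p = 0.326). It was -0.42 on the standard diet without KC888LL (adjusted p = 0.172) and -0.37 on the ketogenic diet without KC913RR (adjusted p = 0.722), where leaving out KC934R gave -0.086. Without KC888LL and KC913RR the averaged value was -0.39 (adjusted p = 0.0430, beside 6.85% of all genes called). Arntl and Nr1d1 were thus both lower in KC872RL, KC873RR, KC893RL and KC935LL than in every wild type library.

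The output factors Dbp and Tef, which bind D-boxes, differed little between groups. Dbp measured 58.0, 59.5, 54.3 and 62.8 CPM in wild type and 46.6, 58.2, 57.6 and 50.8 CPM in knockout on the standard diet. Dbp with ketogenic food measured 56.9, 49.3, 56.6 and 59.7 CPM in wild type and 28.0, 63.0, 59.6 and 55.6 CPM in knockout. All groups of Dbp overlapped. The genotype difference on the ketogenic diet was -0.11 ± 0.18 (adjusted p = 0.878) and the diet difference in the knockout -0.048 ± 0.18 (adjusted p = 0.921). Without KC913RR they were 0.095 and 0.15, and the diet difference without KC888LL was -0.0044.

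Tef, the most abundant of the 10, measured 393, 369, 366 and 376 CPM in wild type and 370, 416, 367 and 384 CPM in knockout on the standard diet. Tef with ketogenic food measured 390, 381, 394 and 404 CPM in wild type and 261, 452, 421 and 451 CPM in knockout. In that group, 3 libraries lay above all wild type libraries and KC913RR lay below every other library of the study. The 2 ends offset each other in the mean, and the log2 fold change was 0.014 ± 0.12 (adjusted p = 0.979), and 0.17 without KC913RR. Diet in the knockout gave 0.044 ± 0.12 (adjusted p = 0.892), 0.20 without KC913RR and 0.026 without KC888LL.

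**Figure D3:**
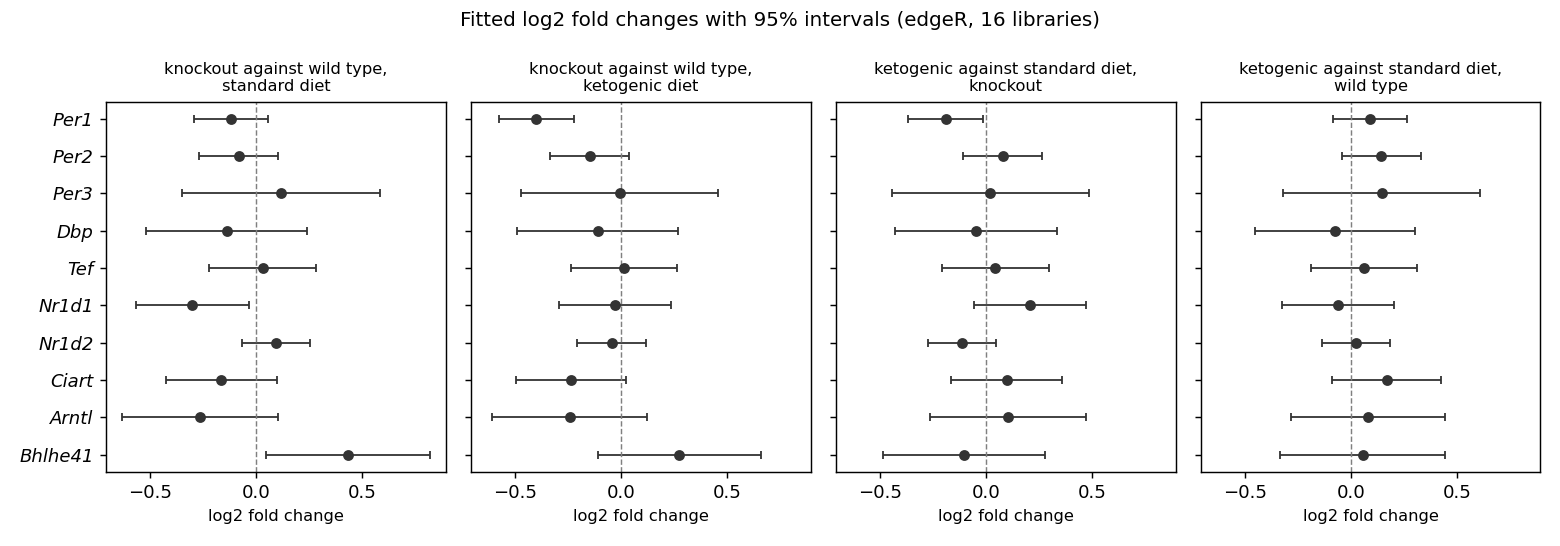
Log2 fold change of the 10 clock genes with 95% intervals from edgeR, for genotype on each diet and diet in each genotype. The intervals of all 10 genes contain 0 for diet in the wild type, and the interval of Per1 lies below 0 for genotype on the ketogenic diet.

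The intervals set the size of change that these data could leave unseen. For diet in the wild type, the 95% intervals of all 10 genes contained a fold of 1, and they reached from 0.729 at the lowest (Dbp) to 1.53 at the highest (Per3). For diet in the knockout, 9 of 10 contained 1, with bounds from 0.712 (Bhlhe41) to 1.40 (Per3). For genotype, 8 of 10 contained 1 on the standard diet, with bounds from 0.644 to 1.77, and 9 of 10 on the ketogenic diet, with bounds from 0.656 to 1.58. The median log2 fold change of the 10 genes was -0.10 for genotype on the standard diet and -0.078 on the ketogenic diet, against 0.00441 and 0.00348 over all tested genes. For diet it was 0.032 in the knockout and 0.071 in the wild type, against 0.00685 and -0.000219. For genotype on the ketogenic diet, Per3, Dbp and Nr1d2 changed sign without KC913RR, and the median without that library was not computed.

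KC913RR, a knockout on the ketogenic diet, held the extreme value of 8 of the 10 genes. It was the lowest of the 16 libraries for Per1, Per3, Dbp, Tef, Nr1d2 and Ciart and the highest for Per2 and Bhlhe41. Over all tested genes it was the lowest for 15.8% and the highest for 16.7%. Dbp was 28.0 CPM there against 46.6 to 63.0 CPM in the other 15 libraries, 2.06-fold lower than their median. Per3 was 2.11-fold lower than the median of the others, Tef 1.49-fold, Per1 1.42-fold, Nr1d2 1.30-fold and Ciart 1.29-fold. Hlf, the third D-box factor of the family, was 41.7 CPM against 79.6 to 128 CPM, 2.59-fold lower than the median. Bhlhe41 was 1.74-fold higher.

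Genes of other lists were also extreme in KC913RR, and those named here, like Hlf, were picked after the values were seen. Of the 8 immediate early genes described below, the transcription factors Fos and Fosb were highest there, at 25.4 and 48.2 CPM against medians of 8.55 and 9.31 CPM in the other libraries. The other 6 did not follow them: the phosphatase gene Dusp1 was lowest of the 16 libraries there, at 9.90 CPM against a median of 14.1 CPM, and 5 lay within the range of the others, among them Npas4 (5.35 against 8.82 CPM) and Nr4a1 (39.0 against 47.8 CPM). The adhesion receptor Cd44 and the oncostatin M receptor gene Osmr, both raised in reactive astrocytes, were 47.1 and 24.5 CPM against medians of 4.53 and 5.84 CPM. KC913RR was also the lowest of the 16 libraries for all 5 oligodendrocyte markers (Mbp, a myelin protein gene, was 866 against a median of 1881 CPM) and for 2 of 6 microglia markers, P2ry12 and Tmem119. Among 8 hormone-induced genes it was the lowest for Tsc22d3 (29.9 against 59.8 CPM), Pdk4 and Zbtb16 and the highest for Fkbp5 and Cdkn1a. The part of these genes in the clock gene values of this library was not tested. The time of collection of the animal was not tested either, since it is not given in the sources used here.

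**Figure D4:**
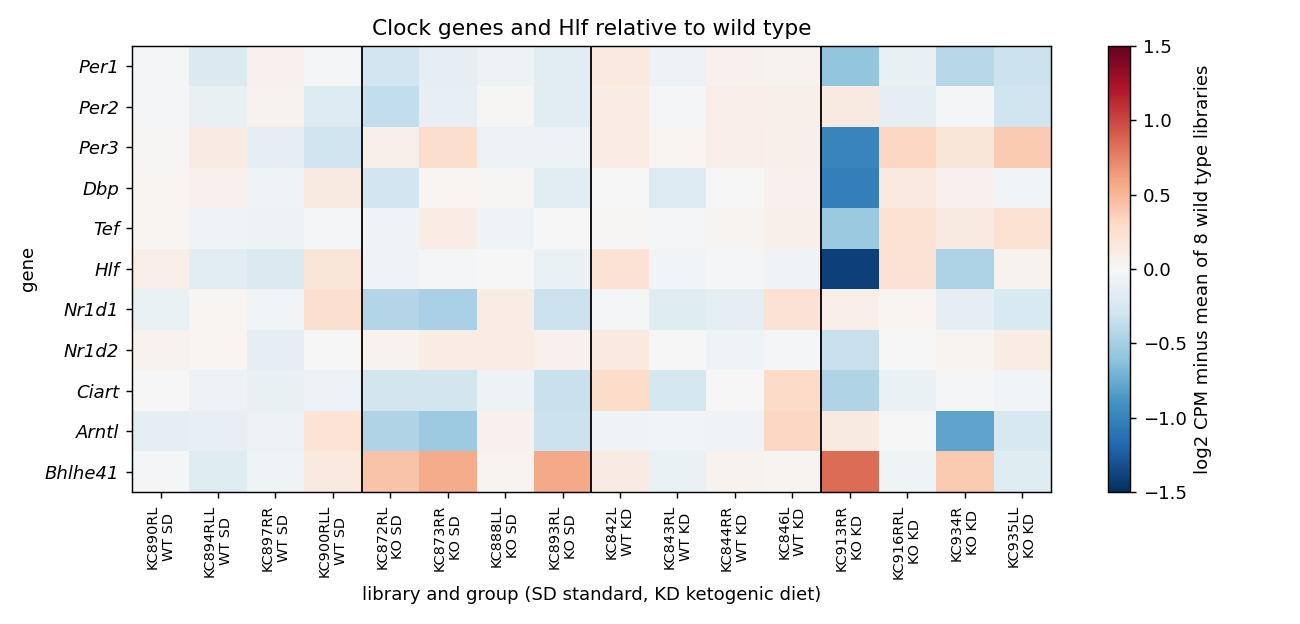
Log2 CPM of each clock gene and of Hlf in each of the 16 libraries, minus that gene's mean over the 8 wild type libraries, as a colour scale with libraries by group (blue lower, red higher). KC913RR has the lowest Dbp (28.0 CPM), Per3 and Tef of all libraries together with the highest Bhlhe41 (63.6 CPM).

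KC913RR also widened the spread of its group. The median within-group SD of log2 CPM over the 10 genes was 0.29 in knockout on the ketogenic diet, against 0.14 over 11943 genes of at least 5 CPM. It was 0.16 against 0.11 in knockout on the standard diet, 0.11 against 0.095 in standard-diet wild type and 0.095 against 0.097 in ketogenic-diet wild type.

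To see whether clock genes varied together from mouse to mouse, each of the other 9 was correlated with Dbp over the 16 libraries, in log2 CPM, with permutation p-values adjusted over the 9 relations. Pearson's r was 0.846 for Tef (adjusted permutation p = 0.033), 0.777 for Per3 (0.043), 0.720 for Nr1d2 (0.0449), 0.623 for Ciart (0.033) and 0.618 for Per1 (0.0391), and it was -0.633 for Bhlhe41 (0.033). It was -0.208 for Per2, 0.0551 for Nr1d1 and -0.102 for Arntl, with adjusted permutation p-values of 0.59, 0.836 and 0.764. Spearman's rho was lower in size, at 0.503 for Tef, 0.347 for Per3, 0.0882 for Nr1d2, 0.524 for Ciart, 0.209 for Per1 and -0.247 for Bhlhe41, and no adjusted permutation p of these was under 0.224.

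With group means subtracted from both genes, so that only variation within groups was compared, the 6 relations with Dbp that had passed the threshold were larger in size over all 16 libraries. Pearson's r was then 0.931 for Tef (adjusted permutation p = 9e-05, from the smallest p the permutations can give), 0.856 for Per3 (0.00417), 0.816 for Nr1d2 (0.00417), 0.700 for Ciart (0.00524), 0.672 for Per1 (0.00806) and -0.643 for Bhlhe41 (0.0201). Spearman's rho, in which a single library weighs less, passed the threshold for Tef at 0.765 (adjusted permutation p = 0.00801), Ciart at 0.691 (0.0183) and Nr1d2 at 0.665 (0.0209). For Per3 rho was 0.565 (0.0581) and for Per1 0.485 (0.106). The permutations exchanged values over all 16 libraries and not within groups, as if the spread were alike in all groups. For Dbp the SD of log2 CPM was 0.55 in knockout on the ketogenic diet and 0.087 to 0.15 in the other groups. These permutation p-values can therefore be too small, and a permutation within groups was not run. Without KC913RR, a setting added after these values were seen, the rho with group means subtracted was 0.396 for Tef, 0.461 for Ciart and 0.214 for Nr1d2, with adjusted permutation p-values of 0.33, 0.33 and 0.568. In that setting no r or rho of the 9 genes passed the threshold, and the smallest adjusted permutation p was 0.126, for Nr1d1 (r = 0.610) and Ciart (r = 0.557).

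Without subtraction of group means, the r values that passed the threshold rest on the 2 libraries farthest from the Dbp median, KC913RR and KC872RL. Without both, r was 0.292 for Tef, 0.137 for Per3, 0.0581 for Nr1d2, 0.422 for Ciart, -0.0349 for Per1 and -0.0750 for Bhlhe41. Without KC913RR alone, r was 0.378 for Tef, 0.0942 for Per3, 0.0137 for Nr1d2, 0.511 for Ciart, 0.170 for Per1 and -0.265 for Bhlhe41. Nr1d1 went the other way, with r of 0.645 and an adjusted permutation p of 0.0846. Within the 8 libraries of the standard diet, r was 0.186 for Tef and -0.190 for Per3. Within the 8 of the ketogenic diet, which include KC913RR, it was 0.953 for both. Per2 and Arntl, which in many tissues peak at another time of day than Dbp, showed no relation that passed the threshold under any of the settings given here.

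By a fixed measure of likeness, Pearson's r of log2 CPM after subtracting group means, compared over 11933 genes and 16 libraries, the gene most like Dbp was Btbd17 (r = 0.945), followed by Nwd1 (0.930), Crocc, Dbt and S1pr1. None of these 5 was among the top 5 without KC913RR, which were led by Eif4enif1 (0.922). For Per1 the most like were Pusl1 (0.939) and Zbtb40 (0.920), and both stayed in the top 5 without KC913RR. For Arntl the most like was Gga2 (0.927), which left the top 5 without that library.

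The rest of the clock was followed in a list of 17 further genes, all of which passed the filter: Clock, Npas2, Cry1, Cry2, Rora, Rorb, Nfil3, Hlf, Bhlhe40, Csnk1d, Csnk1e, Fbxl21, Btrc, Timeless, Usp2, Nampt and Arntl2. None was called by edgeR in any of the 7 comparisons. For genotype on the standard diet 8 were higher and 9 lower, with 5 at an unadjusted p under 0.05, beside 14.3% of all genes. The smallest p belonged to Arntl2, a paralog of Arntl (log2 fold change -0.39, adjusted p = 0.207), followed by Usp2 (0.22, adjusted p = 0.280). For genotype on the ketogenic diet 7 were higher and 10 lower, and the smallest p belonged to Btrc, a subunit of the ligase that degrades PER proteins (0.11, adjusted p = 0.524), and to Clock (0.18, adjusted p = 0.534).

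For diet, the smallest p of this list belonged to Rora, the nuclear receptor that activates Arntl through the element the REV-ERBs also bind. In the knockout its log2 fold change with the ketogenic diet was -0.47 ± 0.13 (adjusted p = 0.0997), followed by Btrc at 0.12 (adjusted p = 0.218). The levels of Rora in the knockout were 60.6, 47.3, 44.4 and 49.1 CPM on the standard diet and 30.1, 38.4, 35.7 and 41.0 CPM on the ketogenic diet. These groups did not overlap, as for 6.39% of all tested genes. In the wild type none of the 17 had an unadjusted p under 0.05 for diet, and the smallest belonged to Usp2 (0.18, adjusted p = 0.936) and Clock (-0.15, adjusted p = 0.943). Oligodendrocyte markers moved in the same comparison as Rora. All 5 (Mbp, Mog, Mag, Mobp and Cnp) fell with the ketogenic diet in the knockout, from a summed 3401 to 3750 CPM to 1333 to 2543 CPM. All 5 were called lower by edgeR, beside 1.16% of all genes called. Of 4 thalamus markers (Tcf7l2, Prkcd, Lef1 and Slc17a6) all 4 were lower, 1 of them called, with sums of 33.2 to 89.6 CPM and 26.6 to 65.7 CPM. Of 4 blood markers all 4 were lower, 3 of them called. Of 6 microglia markers (Cx3cr1, P2ry12, Tmem119, Csf1r, C1qa and Aif1) all 6 were lower, 5 at an unadjusted p under 0.05 and 0 called, with sums of 182 to 369 CPM and 163 to 175 CPM. The part of these markers in the Rora values was not tested. In the interaction the smallest p belonged to Btrc (0.16, adjusted p = 0.654) and Rora (-0.35, adjusted p = 0.709), for averaged diet to Rora (-0.29, adjusted p = 0.170) and Cry2 (0.12, adjusted p = 0.224), and for averaged genotype to Arntl2 (-0.28, adjusted p = 0.151) and Cry2 (-0.13, adjusted p = 0.182).

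Per1 is a target of signals from outside the loop, and 2 lists of genes induced by such signals were read beside it. Of 8 immediate early genes (Fos, Fosb, Junb, Egr1, Arc, Npas4, Nr4a1 and Dusp1), all 8 were lower in the knockout on the standard diet, 5 at an unadjusted p under 0.05 and 0 called, with a median log2 fold change of -0.90. Under ketogenic feeding 7 were lower, 6 at an unadjusted p under 0.05 and 0 called, with a median of -1.07. Averaged over diets, 7 were lower, all 7 at an unadjusted p under 0.05 and 0 called, with a median of -1.10. Egr1 is given by library as a single gene of this list, a choice not set in advance. It measured 98.5, 81.8, 87.3 and 117 CPM in wild type and 26.7, 34.1, 92.1 and 31.2 CPM in knockout on the standard diet. The high knockout value is KC888LL, the same library that lay apart from its group for Nr1d1, Arntl and Bhlhe41.

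Egr1 on the ketogenic diet measured 124, 107, 127 and 131 CPM in wild type and 82.5, 61.2, 26.6 and 43.4 CPM in knockout. These groups did not overlap, as for 3.98% of all tested genes. Of the rest of the list, Junb, Arc, Npas4 and Nr4a1 did not overlap there either, while Fos, Fosb and Dusp1 did. KC916RRL, the knockout library of highest Per1, was the second highest of its group for Egr1, after KC913RR, which had the lowest Per1. With diet in the wild type, all 8 immediate early genes were higher, 2 at an unadjusted p under 0.05 and 0 called, with a median of 0.49, while Per1 stood at 0.091. With diet in the knockout, all 8 were again higher, 0 at an unadjusted p under 0.05 and 0 called, with a median of 0.20, while Per1 stood at -0.19. The part of these signals in the Per1 values was not tested.

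Of 8 genes induced by glucocorticoids or other hormones and stress (Fkbp5, Tsc22d3, Sgk1, Zbtb16, Cdkn1a, Mt1, Mt2 and Pdk4), 6 were higher in the knockout on the standard diet, 3 at an unadjusted p under 0.05 and 0 called. With the ketogenic diet in the knockout 6 were lower, 4 of them at an unadjusted p under 0.05, and 2 higher, 1 of them at an unadjusted p under 0.05, with 0 called. Between genotypes on the ketogenic diet, 4 were higher, 0 of them at an unadjusted p under 0.05, and 4 lower, 2 of them at an unadjusted p under 0.05, with 0 called. Their part in the Per1 values was not tested.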

How the data were processed

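Hippocampal RNA of 16 mice was sequenced, 4 per group. The authors deposited raw counts per gene, 1 column per animal, and whole values with differing totals fit that unit. The submitters' processing notes name mm10 and DESeq2. The aligner, counting program, annotation and use of strand are not given in the sources used here, so overlapping and antisense genes are uncertain. Columns gave genotype and diet but no replicate number and were assigned to groups only. Rows without a gene name (174) kept their identifiers.

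Genes were filtered with filterByExpr, scaled by TMM and fitted with edgeR 4.0.16 (R 4.3.3; robust quasi-likelihood, 1 coefficient per group, all 16 libraries). Two-sided tests were adjusted by Benjamini-Hochberg over the 17469 genes tested, at a threshold of 0.05. Standard errors came from the F statistic. CPM used effective library sizes, and log2 CPM a prior count of 2. Correlations used 100000 permutations, or exact ones over 8 libraries, across groups and not within them. Fits were tested on simulated data. No pair of libraries in a group was alike within counting noise.

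The members, gene lists and tests were chosen with earlier results of these data known. The 10 members were named whatever their values. Of other clock genes, any called gene or, without one, those of the 2 smallest p in a comparison were named. Some genes of the clock and oligodendrocyte lists are not reported here and were left out of their counts and sums. The other lists were read by counts, apart from Egr1, which was given by library without being named in advance. Other genes picked by their values are stated as such. Alternatives were other scalings and filters, DESeq2 1.42.0, limma-voom (limma 3.58.1), only the groups compared, a covariate for Xist and omission of each library in turn. Positions and exon lengths are GENCODE M21 on GRCm38, which held 48970 of the identifiers.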

Additional observations from a re-analysis of the deposited data

Results flagged for a closer look

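Each gene was examined in each group of 4 libraries for a highest or lowest library whose gap to the nearest other, divided by the range of the group, exceeded Dixon's 95% critical value for 4 samples. Chance flags about 1 in 20 groups, and 3 of the 40 groups examined passed. Tef was 261 CPM in KC913RR among the knockout libraries on the ketogenic diet, with a gap of 0.838 of the range. Arntl, the activator of the loop, was 37.0 CPM in KC846L among the wild type libraries on the ketogenic diet, with a gap of 0.955 of the range. It was also 34.2 CPM in KC900RLL among the wild type libraries on the standard diet, with a gap of 0.861. Both Arntl libraries are also the highest of their group for Nr1d1, at 111 and 113 CPM.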

How the results depend on the processing

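With all libraries, edgeR called 0 of the 10 genes in each of the 7 comparisons. With 1 library left out in turn, the number ranged from 0 to 1 for genotype on the standard diet (1 without KC888LL, beside 5.73% of all genes), 0 to 1 for genotype on the ketogenic diet (1 without KC916RRL, beside 0.0733%), 0 to 1 for diet in the knockout (1 without KC888LL, beside 6.18%) and 0 to 2 for averaged genotype (2 without KC888LL, beside 4.96%, and 1 without KC916RRL, beside 0.722%). It stayed at 0 for the other 3. DESeq2 and the table without a filter each gave 1 for genotype on the ketogenic diet and 1 for averaged genotype, Per1 in every case. Leaving out KC888LL and KC913RR together, chosen after seeing the data, gave 2 for genotype on the standard diet (beside 9.98% of all genes), 1 for diet in the knockout (5.77%) and 4 for averaged genotype (6.85%). These changes came with more genes called overall: over all genes, genotype on the standard diet gave 1 call with all libraries and 1016 without KC888LL. Genotype on the ketogenic diet gave 3 calls with edgeR, 45 with DESeq2 and 13 without KC916RRL.

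Of the 70 values of a gene in a comparison, 26 changed sign under some alternative, 9 passed the threshold under some, and 0 did both. For genotype on the ketogenic diet, the log2 fold change of Per3 was 0.030 with Xist as a covariate and 0.23 without KC888LL and KC913RR, that of Dbp was 0.094 and that of Nr1d2 0.046 without these 2, and that of Tef was -0.020 with limma-voom. For diet in the knockout, Per3 was -0.064 with limma-voom and Dbp 0.19 without these 2. With 1 library left out, the ranges for genotype on the ketogenic diet were -0.13 to 0.23 for Per3, -0.22 to 0.095 for Dbp, -0.058 to 0.17 for Tef, -0.083 to 0.059 for Nr1d1, -0.094 to 0.046 for Nr1d2 and, with no change of sign, 0.046 to 0.41 for Bhlhe41 (lowest without KC913RR) and -0.37 to -0.086 for Arntl. For diet in the knockout they were -0.11 to 0.25 for Per3, -0.15 to 0.15 for Dbp, -0.024 to 0.20 for Tef and -0.34 to 0.028 for Bhlhe41. The cause was not tested.

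The correlations with Dbp changed in most settings. With group means subtracted, r for Nr1d1 was -0.0294, and the 6 relations that passed the threshold passed it again, with r of 0.931 for Tef, 0.856 for Per3, 0.816 for Nr1d2, 0.700 for Ciart, 0.672 for Per1 and -0.643 for Bhlhe41. With group means subtracted and KC913RR left out, a setting added after seeing the data, r was 0.453 for Per1, 0.458 for Per2, 0.0176 for Per3, 0.415 for Tef, 0.249 for Nr1d2, 0.557 for Ciart, 0.372 for Arntl and 0.0835 for Bhlhe41. Without the 2 libraries farthest from the Dbp median, r was -0.0349 for Per1, 0.137 for Per3, 0.292 for Tef, 0.0581 for Nr1d2, 0.422 for Ciart, 0.153 for Arntl and -0.0750 for Bhlhe41. Within the standard diet it was 0.496 for Per1, 0.468 for Per2, -0.190 for Per3, 0.186 for Tef, 0.0280 for Nr1d2, 0.667 for Ciart, 0.605 for Arntl and -0.496 for Bhlhe41. Within the ketogenic diet it was 0.629 for Per1, 0.953 for Per3, 0.953 for Tef, -0.232 for Nr1d1, 0.851 for Nr1d2, 0.737 for Ciart and -0.773 for Bhlhe41. Without KC913RR, also chosen after seeing the data, it was 0.170 for Per1, 0.281 for Per2, 0.0942 for Per3, 0.378 for Tef, 0.0137 for Nr1d2, 0.511 for Ciart, 0.297 for Arntl and -0.265 for Bhlhe41.

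No paired analysis was possible because the columns of the table carry no replicate number. A fit of only the groups compared was not run for the interaction and the averaged comparisons, which need all 4 groups. With 4 mice a group, the intervals given above bound the sizes of change, and Ciart had the fewest counts behind its values.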
